A study of Oryza sativa Japonica Group with 41 samples.

Results

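The regions described here are the H3K9ac peaks of rice leaves at ZT12, the end of the afternoon, compared with those at ZT6, the middle of the day. ZT (Zeitgeber time) counts the hours from lights on. The leaves came from 30-day-old plants of the DongJin variety with no treatment, and each time was represented by 2 ChIP-seq libraries made with the same lot of an anti-H3K9ac antibody. The peaks called in these 4 libraries were merged wherever they overlapped by at least 1 bp, which gave 25366 regions on the 12 chromosomes, and the tags (aligned reads kept by the peak caller) of a library's peaks were summed in each region. The 4 libraries are part of a series of 41 samples that also holds leaf H3K9ac at ZT0 and ZT18. It also holds H3K9ac, butyryllysine (Kbu) and crotonyllysine (Kcr) libraries of 12-day-old seedlings. All seedlings were harvested at ZT12, as controls, after 48 h of darkness or after submergence. The peak lists of all 8 leaf libraries merged into 26681 regions, and the 26 lists of the 3 marks merged into 39174. The labels do not say whether the 2 libraries of a time came from separate plants, so p-values measure the spread between these libraries, which may be technical.

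H3K9ac is the acetylation of lysine 9 on the tail of histone H3. Acetyl groups are added by histone acetyltransferases and removed by histone deacetylases, and the mark is known from plants and animals as one that lies around the start of transcribed genes. In plants, acetylation at many clock-controlled and light-regulated genes is known to go up and down over the day with their transcription. The peak coordinates are those of the MSU 7.0 rice assembly, whose gene positions were not used here, so regions are named by their position and not by a gene, and the leaf label was not checked against marker genes.

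The peak caller had used 10279155 and 15733161 tags at ZT6 and 11116575 and 14809122 tags at ZT12. It had listed 22853 and 21628 peaks at ZT6 and 23496 and 24097 at ZT12, and between 87.0% and 97.5% of the peaks of one library overlapped a peak of another. ZT6 replicate 2 stood apart from the other 3 libraries. Repeated tags made up 26.8% of its tags against 46.3% to 48.9%, and its median peak was 1464 bp long against 1257 to 1334 bp. It had the fewest peaks although the caller used the most tags from it. Before repeats were removed, ZT12 replicate 2 had more tags (28763461 against 21495782). Across the regions marked in every library, the SD of the log2 ratio of the 2 ZT6 libraries was 0.318 and that of the 2 ZT12 libraries was 0.201.

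Most regions were marked at both times. Of the 25366 regions, 19946 (78.6%) had a peak in all 4 libraries. A further 1184 regions (4.67%) appeared, with a peak in both ZT12 libraries and in neither ZT6 library, and 459 (1.81%) vanished, with a peak in both ZT6 libraries and in neither ZT12 library. The other regions had uneven calls, among them 1027 with a peak in both ZT12 libraries and in ZT6 replicate 1 alone, against 285 with a peak in both ZT12 libraries and ZT6 replicate 2 alone. The part of ZT6 replicate 2 in the excess of appearing over vanishing regions was not tested. With 1 replicate of each time, the numbers were 1846 and 1185 in replicate 1 and 3110 and 972 in replicate 2.

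Among the 19946 regions with a peak in every library, H3K9ac rose at 1392 and fell at 1799 between ZT6 and ZT12 by edgeR's quasi-likelihood test at an adjusted p under 0.05. These are 6.98% and 9.02% of the regions tested. Falls were also the larger changes in summed tags. The median fall was 1.82-fold and 737 of the falling regions (41.0%) changed by at least 2-fold, 145 of them by at least 4-fold and 18 by at least 8-fold. The median rise was 1.71-fold, and 383 rising regions (27.5%) reached 2-fold, 49 reached 4-fold and 5 reached 8-fold. In every called region the 2 libraries of one time lay above the 2 of the other in normalised tags (tags per 1000000 tags used by the caller in that library), an order seen in either direction at 34.6% (ZT12 above) and 22.4% (ZT12 below) of all tested regions. With each library left out in turn, 1 time was left with 1 library, which the fit assumes to vary like the 2 of the other time. The count then ranged from 221 to 2839 rising and from 374 to 3647 falling, with the low numbers (223 and 221 rising, 374 and 431 falling) without ZT12 replicate 1 or 2 and the high ones without ZT6 replicate 1 (2839 and 3647) or 2 (2277 and 2502). The share of rises among the calls was 43.6%. It was 50.3% (1827 rising, 1807 falling) when libraries were scaled by the tags the caller used, and 22.2% (278 rising, 975 falling) when libraries were scaled by all aligned reads, a scaling that moved the median of all regions by -0.16 on the log2 scale.

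**Figure D1:**
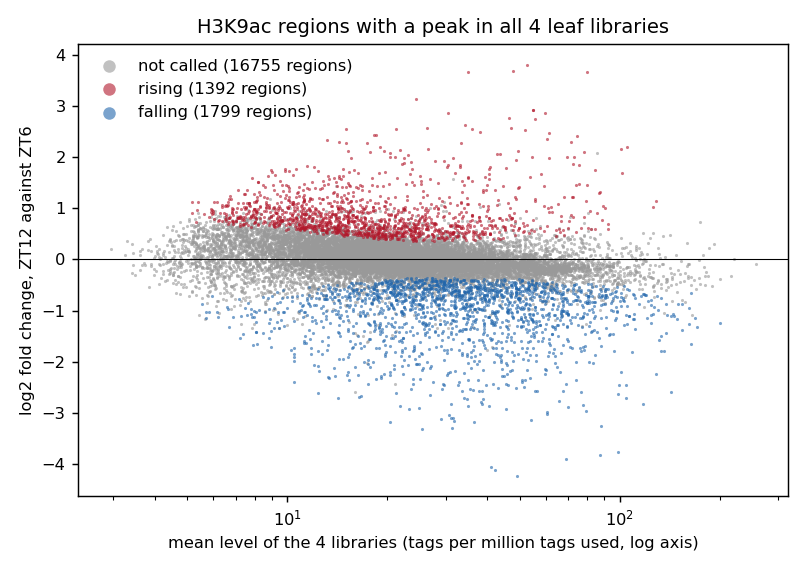
Log2 fold change of ZT12 against ZT6 (vertical axis) against the mean level of the 4 libraries in normalised tags (horizontal log axis) for the 19946 regions with a peak in all 4; each point is 1 region, coloured by its edgeR call at an adjusted p under 0.05. The 1799 falling regions reach -4.23 and lie mostly at high levels, the 1392 rising regions reach 3.82, and the grey cloud slopes from above 0 at low levels to below 0 at high levels.

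Rises and falls were found at different levels of the mark. The tested regions were ranked by their mean level and split into 4 groups of equal size. In the group with the lowest level (2.94 to 14.8 normalised tags) 11.2% rose and 3.53% fell, and in the group with the highest level (31.8 to 257.0) 5.03% rose and 19.1% fell. The regions as a whole followed the same slope. The median log2 fold change was 0.20 in the lowest group and -0.16 in the highest, and it fell from the lowest to the highest group in replicate 1 (0.14 to -0.15) and in replicate 2 (0.37 to -0.06) taken alone. With a scaling that removed this slope, an alternative added after the slope was seen, 1168 regions rose and 1690 fell. In the lowest group the counts then became 233 rising and 325 falling in place of 560 and 176, and in the highest group 422 and 685 in place of 251 and 953.

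A second rule compared normalised tags within each replicate number and asked that replicates 1 and 2 both move past 1.5-fold one way. By this rule 1070 regions rose (5.36% of those tested) and 1075 fell (5.39%), and 34 regions changed by more than 1.5-fold in opposite directions in the 2 replicates. Of the rising regions by edgeR, 939 (67.5%) passed the rule, which is 87.8% of the regions rising by the rule. Of the falling regions by edgeR, 1040 (57.8%) passed it, which is 96.7% of those falling by the rule.

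The strongest rises were at regions that carried a short peak with few tags at ZT6 and a domain of several kilobases at ZT12. Rising region 1 (chr1:29072457-29077444) held 84 and 87 tags in the ZT6 libraries and 1110 and 1444 tags in the ZT12 libraries, or 8.17 and 5.53 against 99.9 and 97.5 normalised tags. Both ZT12 libraries were far above both ZT6 libraries, and the log2 fold change was 3.82 ± 0.16 (SE; edgeR adjusted p = 0.000669). Its called length was 883 and 1038 bp at ZT6 and 4791 and 4988 bp at ZT12. It had no peak in the ZT0 libraries and 28.7 and 34.8 normalised tags at ZT18.

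Rising region 2 (chr5:21096906-21100970) had 78 and 92 tags at ZT6 and 1032 and 1263 at ZT12 (log2 fold change 3.68 ± 0.13, edgeR adjusted p = 0.000669), with 11.8 and 10.4 normalised tags at ZT0 and 21.3 and 19.1 at ZT18. Rising region 3 (chr4:21414143-21420028) had 52 and 73 tags at ZT6 and 832 and 815 at ZT12 (log2 fold change 3.68 ± 0.19, edgeR adjusted p = 0.000753). Its level was 4.17 and 7.40 normalised tags at ZT0 and 24.5 and 25.2 at ZT18. In these regions ZT12 was the highest of the 4 times and ZT18 the next. Rising region 4 (chr6:15916423-15923643) was the least even of the 10, with 58 and 248 tags at ZT6 against 1714 and 2125 at ZT12, and its SE of 0.45 was the largest among the 10 rising regions named. The ZT6 libraries differed there in called length as well, with 873 and 2810 bp. When peaks were merged only at an overlap of at least 50% of the shorter peak, its log2 fold change was 4.7 ± 0.15 in place of 3.66 ± 0.45. Rising region 5 (chr6:20018432-20021278) had 48 and 75 tags at ZT6 and 460 and 689 at ZT12 (log2 fold change 3.15 ± 0.13).

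The next 5 regions by size of the rise had log2 fold changes of 2.93 to 2.77. They were rising regions 6 (chr1:27220371-27224779), 7 (chr7:10808995-10814523), 8 (chr4:30613962-30617931), 9 (chr1:28345830-28351582) and 10 (chr1:23910413-23914872). Adjusted p-values of the 10 regions lay between 0.000669 and 0.00522 in edgeR. 5 of the 10 had no peak in either ZT0 library, as did 7.11% of all rising and 2.23% of not called regions. Rising region 7 had no peak in the seedling H3K9ac libraries, with 119 and 203 tags at ZT6 and 1059 and 1474 at ZT12. Rising region 10 went from 114 and 182 tags to 931 and 1170, yet had 3.27 normalised tags in one ZT18 library and no peak in the other. High marking of that region was seen in leaves at ZT12 and not in leaves at ZT18. Control seedlings had 37.1 and 40.9 normalised tags there. All seedlings were harvested at ZT12, so the part of time of day in their levels was not tested. Rising region 9, with 13.5 and 13.9 normalised tags at ZT6 and 101.0 at ZT12 replicate 2, was already at 29.9 and 40.7 at ZT0, so its lowest level in the 4 times was at ZT6.

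**Figure D2:**
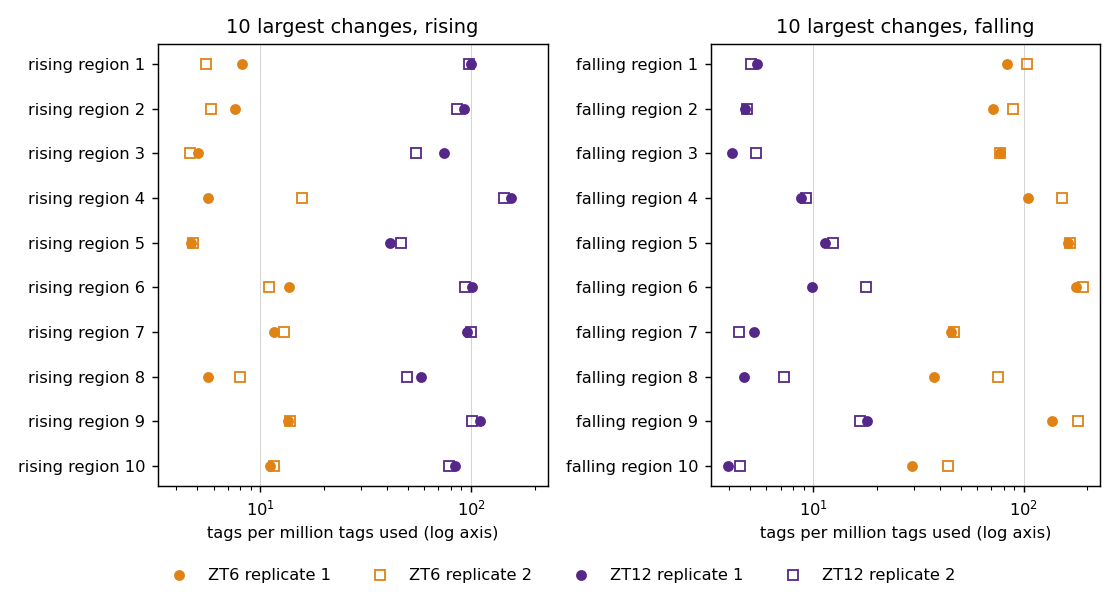
Level of each of the 10 regions with the largest rise (left) and the 10 with the largest fall (right) in normalised tags (horizontal log axis); each symbol is 1 library, orange for ZT6 and purple for ZT12, filled for replicate 1 and open for replicate 2. In each of the 20 regions the ZT6 and ZT12 libraries lie apart, with the widest gap between replicates at ZT6 in rising region 4 (5.64 and 15.8).

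The strongest falls were larger still. Falling region 1 (chr9:16198969-16203568) held 856 and 1626 tags at ZT6 and 60 and 75 at ZT12, or 83.3 and 103.0 against 5.40 and 5.06 normalised tags. The log2 fold change was -4.23 ± 0.21 (SE; edgeR adjusted p = 0.000753). The domain called there shrank from 3344 and 4600 bp to 826 and 872 bp. It was at 42.8 and 71.3 normalised tags at ZT0, and at ZT18 it had 4.07 in one library and no peak in the other. Control seedlings had 5.76 and 5.59.

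Falling region 2 (chr8:8759737-8764332) went from 730 and 1389 tags to 53 and 72 (log2 fold change -4.12 ± 0.21), and falling region 3 (chr5:29224738-29227833) from 791 and 1213 tags to 46 and 79 (-4.07 ± 0.16). Falling region 3 differed from the first 2 in that ZT0, with 86.2 and 133.0 normalised tags, was above ZT6, with 77.0 and 77.1. Falling region 4 (chr7:26481253-26488156) had 1082 and 2387 tags at ZT6 and 97 and 137 at ZT12 (-3.91 ± 0.27). Falling region 5 (chr4:29452634-29459937) had 1661 and 2593 tags at ZT6 and 127 and 183 at ZT12 (-3.84 ± 0.16), over a domain that was 7115 and 7304 bp long at ZT6 and 1230 and 1305 bp at ZT12. Falling region 6 (chr6:31025402-31029819) was the highest of the 10 at ZT6, with 177.0 and 190.0 normalised tags, and dropped to 9.90 and 17.8.

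The other 4 were falling regions 7 (chr9:12591601-12594023), 8 (chr8:8991442-8998028), 9 (chr1:43114937-43122668) and 10 (chr4:26615613-26619348), with log2 fold changes of -3.32, -3.31, -3.27 and -3.18. Adjusted p-values of the 10 lay between 0.000669 and 0.00655. The ZT6 libraries were uneven at falling region 8, with 385 and 1187 tags against 52 and 108 at ZT12, and this region had no peak at ZT18 and 5.18 normalised tags in only 1 library at ZT0. Falling region 9 was high at ZT6 alone among the 4 times. It had 136.0 and 181.0 normalised tags (1403 and 2843 tags) at ZT6, 200 and 248 tags at ZT12, and in normalised tags 9.25 and 18.4 at ZT0, and 12.6 and 9.47 at ZT18. 5 of the 10 falling regions had no peak in either control seedling library, against 1 of the 10 rising regions. Such a lack was seen at 12.1% of all falling, 6.75% of all rising and 6.66% of not called regions.

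The change in tags came with a change in the length of the called domain. Rising regions were called over a median of 1142 and 1286 bp in the ZT6 libraries and 1510.5 and 1573 bp in the ZT12 libraries, and in 84.2% of them the called length grew in both replicates, as it did in 23.4% of all tested regions. Falling regions were called over a median of 2122 and 2684 bp at ZT6 and 1630 and 1683 bp at ZT12, and the length shrank in both replicates in 89.5%, against 30.8% of all tested regions. Tags per base pair called changed in the same direction. The median log2 ratio of tags per base pair was 0.41 and 0.67 in replicates 1 and 2 of the rising regions and -0.50 and -0.28 in those of the falling regions, while regions that were not called had -0.06 and 0.24. The split between length and density thus differed between replicates, and ZT6 replicate 2 is the library with the longest peaks. Fold enrichment over the local background, as the peak caller gave it, moved less than the tags. In replicate 2 of the falling regions it moved up, with a median log2 ratio of 0.11, beside 0.12 at the regions not called. Median fold enrichment was 8.06 and 6.42 at ZT6 and 8.99 and 8.58 at ZT12 in the rising regions. In the falling ones it was 7.82 and 6.47 at ZT6 and 7.21 and 6.88 at ZT12. Named regions differed in this measure. It went up at rising region 1 (4.84 and 3.89 to 7.69 and 6.71) and down at rising region 9 (9.04 and 7.58 to 5.18 and 4.97). It went down at falling region 1 (8.45 and 6.28 to 5.78 and 5.24) and up at falling region 4 (5.25 and 4.53 to 6.81 and 5.89).

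**Figure D3:**
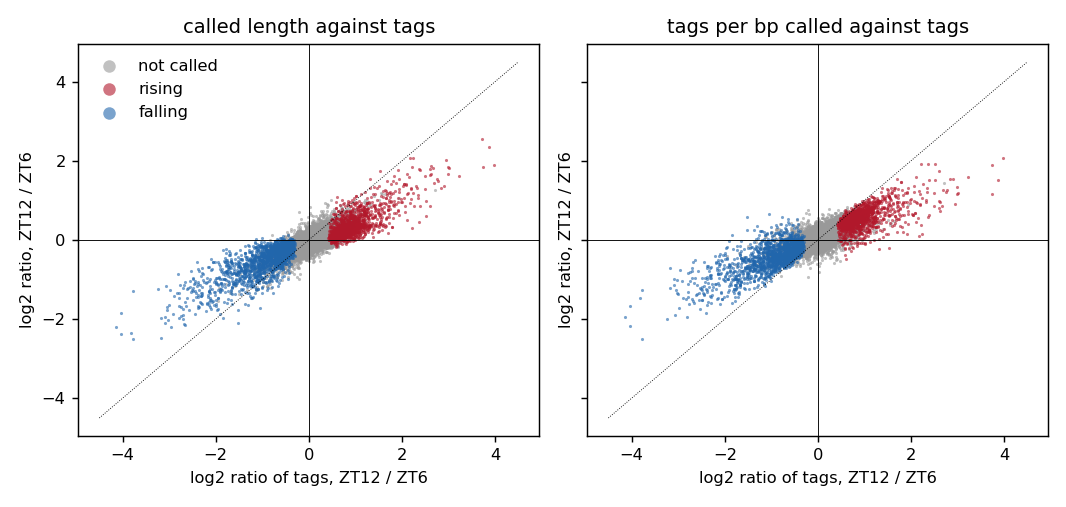
Log2 ratio of ZT12 to ZT6, averaged over the 2 replicates, of the called length (left) and of the tags per base pair called (right) against that of the normalised tags, for the 19946 regions marked in every library; each point is 1 region and the dotted line marks equal ratios. Rising regions lie mostly above 0 and falling regions mostly below 0 in both panels, and 84.2% of rising and 89.5% of falling regions changed in length the same way in both replicates.

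When the called length entered the edgeR fit as an offset, 583 of the rising regions (41.9%) and 747 of the falling regions (41.5%) were still called in their direction, out of 695 and 828 calls. When tags were prorated to the interval called in all 4 libraries, 716 (51.4%) and 982 (54.6%) were still called, out of 917 and 1131. The prorating takes the tags of a peak as spread evenly along it. Both fits therefore rest on nearly the same quantity, the tags per base pair called, and are not separate checks. With the length offset, the median log2 fold change was 0.48 in the rising and -0.45 in the falling regions. Over the shared interval it was 0.46 and -0.47. Rises and falls were thus close in median size in both fits. The 20 regions named above were called in both fits, with smaller changes. Over the shared interval the rises were between 0.82 and 2.04 on the log2 scale and the falls between -2.55 and -0.81. Rising region 1 then had 1.44 in place of 3.82, and falling region 1 had -2.03 in place of -4.23.

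Regions with long domains fell more often than short ones, also by the length called in the ZT0 libraries, which did not enter the comparison. Of the 2379 tested regions with a mean ZT0 length under 1000 bp, 1.98% fell and 10.3% rose. Of the 13727 regions of 1000 to 2000 bp, 6.11% fell and 5.97% rose. Falls made up 27.2% of the 1971 regions from 2000 to 3000 bp and 39.9% of the 736 regions from 3000 bp up, where rises made up 6.24% and 3.12%. The 1133 tested regions that lacked a peak in at least 1 ZT0 library had 16.1% rises and 7.33% falls. These are the calls made without the scaling that removed the slope with level. The part of level in the shares by length was not tested.

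The other leaf libraries, at ZT0 and ZT18, placed these changes in the course of the day. Among the 1182 rising regions with a peak in all 8 leaf libraries (84.9% of those rising), the median level was 12.7 and 13.7 normalised tags at ZT0, 13.6 and 11.9 at ZT6, 22.6 and 22.7 at ZT12, and 20.5 and 17.9 at ZT18. Among the 1631 falling regions with 8 peaks (90.7%), it was 32.1 and 37.5 at ZT0, 44.1 and 45.6 at ZT6, 24.1 and 23.8 at ZT12, and 27.4 and 25.2 at ZT18. The ZT18 medians of both classes lay nearer to those of ZT12 than to those of ZT6. The median of the regions that were not called lay between 20.1 and 22.6 in each of the 8 libraries, while single regions of this class could differ between times.

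**Figure D4:**
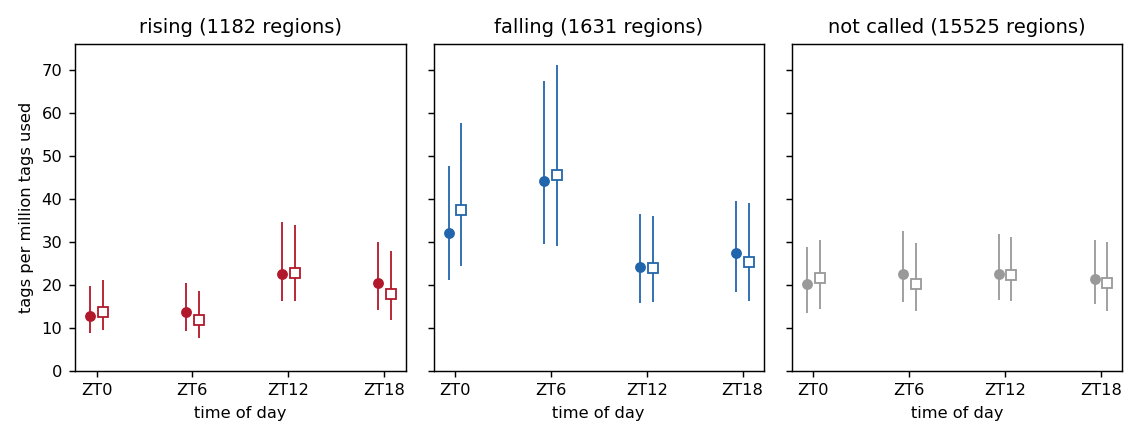
Median level with the range from the lower to the upper quartile, in normalised tags, of the rising, falling and not called regions with a peak in all 8 leaf libraries at the 4 times of day; each symbol is 1 library, filled for replicate 1 and open for replicate 2. Rising regions go from 13.6 and 11.9 at ZT6 to 22.6 and 22.7 at ZT12, falling regions from 44.1 and 45.6 to 24.1 and 23.8, and the ZT18 medians stay near those of ZT12.

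ZT18 was then tested against ZT0 in its own edgeR fit, which shares no library with the comparison of ZT12 and ZT6. Its libraries differed in depth, with 9836714 and 16212445 tags used at ZT0 and 16232431 and 5914314 at ZT18. The part of depth in the counts of this fit was not tested. Of all 18338 regions with 8 peaks, 5.28% were higher and 2.7% were lower at ZT18 than at ZT0. Of the 1182 rising regions, 361 (30.5%) were higher at ZT18 and 1 was lower, and their median log2 fold change was 0.48 against 0.01 for all regions. Of the 1631 falling regions, 376 (23.1%) were lower at ZT18 and 21 (1.29%) were higher, with a median of -0.31. In direction alone, 1071 rising regions (90.6%) were above 0, as were 51.6% of all regions, and 1306 falling regions (80.1%) were below 0, as were 48.4%. With the called length as an offset the count of falling regions lower at ZT18 was 70 of 1631 (4.29%, against 0.414% of all regions), and that of rising regions higher at ZT18 was 205 of 1182 (17.3%, against 2.72%). Without ZT18 replicate 1, 202 rising regions (17.1%) were higher, against 2.74% of all.

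Single regions followed different courses. Of the 5 named rising regions with 8 peaks, 4 were higher at ZT18 than at ZT0, led by rising region 3 (log2 fold change 2.04, edgeR adjusted p = 0.00309), and rising region 9 was not called (0.33, adjusted p = 0.242). Of the 8 named falling regions with 8 peaks, 7 were lower at ZT18, led by falling region 4 (-3.18, edgeR adjusted p = 0.0015), and falling region 9 was not called (-0.33, adjusted p = 0.556).

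Regions that appeared at ZT12 were for the most part short and held few tags. Their median was 72 and 100 tags in the ZT12 libraries, against 244 and 320 tags at the regions with a peak in every library, over a median of 910.5 and 968 bp. The peak caller's score (10 times the -log10 of its p-value) was under 100 at 51.9% and 37.5% of them. In the ZT18 libraries 36.6% had a peak in both, and in the ZT0 libraries 24.4% did, against 80.9% of all 25366 regions at either time. ZT18 replicate 2 was the shallowest leaf library, with 5914314 tags used. It had a peak at 38.9% of the appearing regions, against 74.3% in ZT18 replicate 1. The part of depth in these shares was not tested. A peak in both ZT18 libraries and in neither ZT0 library was seen at 122 (10.3%), and the reverse at 5 (0.422%). Of all 25366 regions, 12.0% had no peak in either ZT0 library and 8.78% had none in either ZT18 library. The share of all regions with each of the 2 patterns was not counted. Control seedlings had an H3K9ac peak in both libraries at 48.9% of the appearing regions and a Kbu peak at 76.8%, against 79.4% and 86.5% of all regions.

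The 5 appearing regions with the highest level were of another kind, since they were domains of 5747 to 8093 bp. Appearing region 1 (chr2:31645979-31654071) had 2784 and 3180 tags at ZT12, at a fold enrichment of 3.52 and 3.35. It had a peak in one ZT0 library, at 178.0 normalised tags, and none in the other, and 173.0 and 221.0 at ZT18. Appearing region 2 (chr3:4412642-4419450) had 1965 and 2406 tags at ZT12, no peak at ZT0, and 13.2 and 17.2 normalised tags at ZT18. Appearing region 3 (chr3:32652446-32659807) had 1392 and 1867 tags and appearing region 4 (chr1:40809956-40815702) had 1540 and 1845, and both had peaks in all ZT0 and ZT18 libraries. Appearing region 5 (chr9:21174668-21182315), with 1271 and 1820 tags, had 4.37 normalised tags in one ZT0 library and 12.9 in one ZT18 library, and no peak in the others. No called peak does not mean no tags. The caller was run with no control library and took its regional background from up to 10000 bp around a peak, and replicates of one time could differ in the call of a domain as strong as appearing region 1. The tags at ZT6 in these regions are not in the lists used here, so no fold change was computed. A call that the caller did not make and a row that is not in these lists cannot be told apart, which holds for all appearing and vanishing regions.

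Vanishing regions were fewer and held more tags, but not at a higher fold enrichment. Median fold enrichment was 4.98 and 4.49 in the ZT6 libraries, against 5.18 and 5.07 for the appearing regions in the ZT12 libraries. The score was under 100 at 54.0% and 32.2% of the vanishing regions. The vanishing regions had a median of 83 and 169 tags in the ZT6 libraries, over 1058 and 1522 bp. At least 4000 bp wide were 17 of the 459, against 13 of the 1184 appearing regions. A peak in both ZT0 libraries was seen at 37.7% and in both ZT18 libraries at 13.5%. Taken alone, ZT18 replicate 1 had a peak at 28.1% and the shallower ZT18 replicate 2 at 15.7%. At 77 vanishing regions (16.8%) there was a peak in both ZT0 libraries and in neither ZT18 library, and the reverse held at 5 (1.09%). The share of all regions with either pattern was not counted, and the part of depth was not tested. In control seedlings 15.9% of the vanishing regions had an H3K9ac peak in both libraries and 31.2% a Kbu peak. These shares were 79.4% and 86.5% over all 25366 regions, and 38.7% and 61.0% at the 3777 regions with uneven calls. The appearing regions had 48.9% and 76.8%, the falling regions 83.8% and 90.2%, and the regions with no called change 91.1% and 93.3%.

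Vanishing region 1 (chr4:25669760-25675802) had 820 and 1782 tags at ZT6 over 4473 and 6043 bp. At ZT0 it stood at 54.5 and 83.0 normalised tags, and no peak was called at ZT18 or in the seedlings. Vanishing region 2 (chr1:10008440-10013062) had 810 and 1389 tags at ZT6 and 88.7 and 117.0 normalised tags at ZT0, and vanishing regions 3 (chr5:14212823-14217911) and 4 (chr2:27037230-27043497) had 701 and 1525 tags and 647 and 1694 tags at ZT6. In these 4 regions a peak was called in both ZT0 libraries and in no ZT12 or ZT18 library. Vanishing region 5 (chr5:7414927-7417079), with 758 and 969 tags at ZT6, differed from them in having peaks at ZT18, at 31.6 and 27.7 normalised tags, as well as at ZT0, at 64.5 and 94.5. None of the 5 had an H3K9ac peak in the control seedlings.

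Changed regions were found on all chromosomes, in shares that varied. Rises ranged from 5.70% of the tested regions of chromosome 3 to 8.36% of those of chromosome 6, and falls from 6.47% on chromosome 12 to 10.6% on chromosome 5. Falls outnumbered rises on chromosome 3 (248 against 139) and rises outnumbered falls on chromosome 12 (93 against 77). Some neighbours along a chromosome moved the same way. The next tested region after a falling region was itself falling in 333 of 1798 cases (18.5%, against 9.02% of all regions) and rising in 74 (4.12%, against 6.98%). After a rising region it was rising in 164 of 1392 cases (11.8%) and falling in 71 (5.10%). The falling pairs were a median of 6106 bp apart, and 30 of the 333 were less than 1000 bp apart. The part of domains called in pieces in these counts was not tested.

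Runs of at least 3 falling neighbours numbered 48 and held 163 regions, and runs of at least 3 rising neighbours numbered 18 and held 57. The longest run was 6 falling regions within 51501 bp of chromosome 10 (chr10:23097412-23148912), singled out after its values were seen. Its steepest member (chr10:23126590-23131287) had 486 and 957 tags at ZT6 and 269 and 358 at ZT12 (log2 fold change -1.24 ± 0.18), and the other 5 had log2 fold changes of -0.80 to -0.50. The longest rising run was 5 regions within 54966 bp of chromosome 11 (chr11:21244613-21299578). The first of them (chr11:21244613-21247268) went from 90 and 88 tags to 381 and 437 (log2 fold change 2.13 ± 0.17), and the other 4 had 0.65 to 0.86. Of the appearing regions 9.88% had a rising region as the nearest tested region and 11.2% a falling one, and of the vanishing regions 7.41% and 22.0%. Over all tested regions these shares were 6.98% and 9.02%.

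Last, the members were looked up in the seedlings, where H3K9ac after 48 h of darkness (the starvation group) was compared with the control in 2 libraries each. Of the 16915 regions with a peak in these 4 libraries and in the 4 leaf libraries, 17.8% were higher and 20.8% lower in darkness by edgeR. Of 1112 rising regions, 129 (11.6%) were higher and 398 (35.8%) lower, with a median log2 fold change of -0.16. Of 1324 falling regions, 263 (19.9%) were higher and 449 (33.9%) lower, with a median of -0.08. Both classes were thus lower in darkness in a larger share than all regions together, where the median was 0.00, although one class had risen and the other had fallen in the afternoon. The control and starvation libraries differed in depth, with 10581295 and 11985500 against 5631625 and 6480371 tags used, and the part of depth in these counts was not tested. An input library from the seedlings had a peak in 6 of the 1392 rising and 5 of the 1799 falling regions (0.431% and 0.278%), against 0.643% of all regions.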

How the data were processed

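The authors aligned reads to the MSU 7.0 rice assembly with Bowtie2 2.2.5, removed likely PCR duplicates with SAMtools 0.1.19 and called peaks in each library with MACS 1.4.2 (p cutoff 1.00e-05, 1 tag kept per position, no control file). The deposited peak lists give the tag count of each peak, a score (10 times the -log10 of the p-value) and the fold enrichment over the local background. Here the peaks of the 4 libraries were merged by an overlap of 1 bp and their tags summed per region. Regions with a peak in every library were tested with edgeR 4.0.16 (TMM factors from the summed tags, quasi-likelihood test, Benjamini-Hochberg adjusted p under 0.05, R 4.3.3). Log2 fold changes come from this fit. Its SE was taken as the size of the log2 fold change divided by the square root of the F statistic. Levels are normalised tags, the tags of a region per 1000000 tags used by MACS in that library. In simulated counts for this comparison 96.5% of 200 regions changed by 2-fold were recovered over 19946 regions. The simulation gave all regions and libraries the same dispersion (0.0117). It therefore does not give the recovery where replicates are uneven, as they were at ZT6.

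The regions named are the 10 largest rises and 10 largest falls among called regions whose times did not overlap, and the 5 appearing and 5 vanishing regions with the highest lower value of their 2 libraries. The members, lists and tests were chosen with earlier results of these data known. The edgeR fits did not treat same-numbered libraries as pairs, while the 1.5-fold rule, the length and density ratios and the counts within 1 replicate set same-numbered libraries against each other. Alternatives covered the scaling, filters, overlap, called length, DESeq2 1.42.0, a replicate block and leaving out libraries. Peak lists of 17 libraries were read, and 10 files were not used. Tags outside called peaks and gene positions were not analysed here.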

Additional observations from a re-analysis of the deposited data

How the results depend on the processing

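Counts of rising and falling regions (1392 and 1799) became 278 and 975 with library sizes from the aligned reads, 714 and 743 with every merged region and 0 tags where no peak was called, 695 and 828 with the called length as an offset, and 917 and 1131 over the interval called in all 4 libraries. DESeq2 called 901 rising and 1568 falling. Leaving out 1 library, which leaves 1 library at a time that is assumed to vary like the other 2, gave 221 to 2839 rising and 374 to 3647 falling. RLE factors, the tags MACS used, 50 tags, a score of 100, 50% overlap, all 8 leaf libraries and level-dependent scaling kept both counts within 1.5 times. The replicate block gave 1074 and 1561. Deviations of same-numbered libraries correlated at -0.07 across regions. With 2 libraries per time this value cannot show whether the numbers pair the libraries. Counts by the 1.5-fold rule (1070 and 1075) became 332 and 327 per kb of called peak and 296 and 496 at 2-fold, and 416 rising with aligned reads. With 1 replicate they were 1628 to 2679 rising and 1608 to 1686 falling. Appearing regions numbered 1846 to 3110 and vanishing regions 972 to 1185 with 1 replicate. With the called length as an offset, 205 rising regions were higher and 70 falling regions lower at ZT18 than at ZT0 (361 and 376 otherwise). Leaving out 1 library of that fit gave 202 to 360 and 289 to 512. With classes called without ZT6 replicate 2, chosen after seeing the data, they were 500 of 1926 and 391 of 2297. The direction of the 20 named regions held in each fit that included them, and rising region 4 and falling region 8 passed the threshold no longer with 0s (adjusted p = 0.0728 and 0.0674 in edgeR), nor did falling region 8 without ZT12 replicate 1 (0.0562). With peaks of at least 50 tags there were 1163 appearing and 403 vanishing regions, and the part of depth in the peak calls was not tested.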
